A study of Mus musculus with 19 samples.

Results

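The 10 keratin genes described here are *Krt5*, *Krt14*, *Krt15* and *Krt17*, which mark the basal layer of the mammary epithelium, *Krt7*, *Krt8*, *Krt18* and *Krt19*, which mark its luminal cells, and *Krt23* and *Krt6a* as others. They were chosen by name, with earlier results of these data known, and are 10 of the 46078 genes in the table. The table holds 54 keratin genes, of which 44 lie outside this set. Keratins are the intermediate filament proteins of epithelial cells, and each filament pairs type I chains with type II chains. In mammary ducts the inner luminal layer makes mainly *Krt8* with *Krt18*, and the outer basal layer, which holds the contractile myoepithelial cells, makes mainly *Krt5* with *Krt14*. Keratin transcripts are therefore widely used to follow these layers in tissue.

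RNA-seq of 19 samples from female mice covered 3 mammary glands of wild-type mice (MG WT) and 4 samples in each of 4 other groups. MG N and MG NP were glands of tumor-bearing mice without malignant lesions, and T N and T NP were mammary tumors. MMTV-neu drives neu (ERBB2) from the MMTV promoter in mammary epithelium, the conditional p53wm-R172H allele needs Cre to make the R172H mutant in place of normal p53, and the Cre used here, Fsp-Cre, is active in fibroblasts. The genotype was MMTV-neu;Fsp-Cre for the T N tumors and for MG N replicate 1, while MG N replicates 2 to 4 were MMTV-neu;p53wm-R172H/+ without Cre, and all MG NP and T NP samples were MMTV-neu;p53wm-R172H/+;Fsp-Cre. The MG WT mice carried none of these alleles and were age-matched, the ages are not in the labels, the cohort had a mixed FVB, C57 and BALB/c background, and no treatment is named. Reads assigned to genes ran from 54677315 to 62645459 (median 54753948, n = 3) in MG WT, from 20899152 to 26373331 (median 23117630, n = 4) in MG N and from 21467242 to 26888814 (median 24226917, n = 4) in MG NP. They ran from 23520971 to 27262440 (median 24883534, n = 4) in T N and from 20972633 to 23234914 (median 22533156, n = 4) in T NP. The greater depth of MG WT, and any batch that goes with it, cannot be told apart from the genotype.

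Values below are normalized counts, which are reads divided by 1 size factor per library. A gene was tested as log2(normalized count + 1) with limma where enough samples reached 10 normalized counts, and it was called at a Benjamini-Hochberg adjusted p under 0.05 with at least a 2-fold change. T N was compared with MG N and T NP with MG NP, called their glands below, although 3 of the 4 MG N glands differ from T N in genotype. *Erbb2*, onto which neu transgene reads may have been counted, had 3826, 3855 and 4210.1 normalized counts for MG WT replicates 1 to 3, 14718, 1845, 9610.0 and 2046 for MG N replicates 1 to 4 and 9969, 10787, 3985 and 3966 for MG NP. The tumors had 81841, 73426, 155042 and 102598 for T N and 115481, 117600.0, 108664 and 84389.7 for T NP, all above the 11 glands. The log2 fold change was 4.36 (standard error 0.68) in T N and 4.04 (standard error 0.37) in T NP against their glands (limma, Benjamini-Hochberg adjusted p = 0.00104 and 5.95e-05), while MG N against MG WT gave 0.28 (standard error 0.71) and was not called. *Trp53* transcripts of both alleles are counted together, so they do not show the R172H allele, and 708, 1554, 899.8 and 1083 normalized counts for T N and 567, 640.4, 688 and 896 for T NP gave a log2 fold change of −0.56 (standard error 0.25) that was not called. Against MG WT, *Trp53* was called lower in MG N (−1.43), MG NP (−1.31) and the tumors (−1.14). It was not called in the tumors against their glands or in MG NP against MG N. Epithelial markers were present in every sample: each of 14 pan-epithelial genes, among them *Epcam* and *Cdh1*, had reads in all 19. Their summed normalized count was 61211, 63115 and 71969.9 for MG WT, 16119.9, 8703, 19582 and 8668 for MG N and 15506, 16518, 18270.1 and 5466 for MG NP. In the tumors it was 87279, 103842, 91544 and 93908 for T N and 94855, 100139, 81747 and 91570.2 for T NP, where *Epcam* was the most abundant of them. The glands of tumor-bearing mice had the lowest epithelial sums, and MG NP replicate 4 the lowest of all.

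Keratin genes together took 0.275% to 0.315% of the reads on genes in MG WT, 0.0502% to 0.0870% in MG N and 0.0216% to 0.0876% in MG NP. In T N they took 0.135% to 0.439% and in T NP 0.170% to 0.278%. The 10 genes held nearly all of these reads, from 94.2% in MG NP replicate 4 to 99.9% in the highest T N tumor. Within the keratin reads, the 4 basal genes took 28.2% to 32.3% across MG WT, 16.3% ± 8.39 (SD, n = 4) for MG N and 16.0% ± 3.39 (SD, n = 4) for MG NP. Their share was 0.161% ± 0.104 (SD, n = 4) for T N and 0.552% ± 0.0673 (SD, n = 4) for T NP, below every gland, and the T N and T NP ranges (0.0681% to 0.309% and 0.483% to 0.611%) did not overlap. Most basal reads of the T NP tumors were on *Krt17*: 207, 270, 188 and 257 reads in replicates 1 to 4. *Krt14*, the next highest, had 19, 25, 32 and 43. The counts of *Krt5*, *Krt14* and *Krt15* each overlapped between T N and T NP. *Krt8* and *Krt18* together took 40.1% ± 1.08 (SD, n = 3) for MG WT, 54.2% ± 9.17 (SD, n = 4) for MG N, 53.9% ± 0.963 (SD, n = 4) for MG NP, 93.1% ± 2.01 (SD, n = 4) for T N and 93.4% ± 1.39 (SD, n = 4) for T NP. *Krt19* alone took 24.0% ± 0.956 (SD, n = 3) for MG WT and 21.2% ± 4.96 (SD, n = 4) for MG N, against 0.271% ± 0.269 (SD, n = 4) for T N and 0.667% ± 0.983 (SD, n = 4) for T NP. The mean share of *Krt7* ran from 3.68% ± 0.312 (SD, n = 4) for T NP to 4.55% ± 0.698 (SD, n = 3) for MG WT. The keratin reads of the tumors were thus almost wholly *Krt8* and *Krt18*, while those of the glands were a mixture of both layers. Per kilobase of exon, the order of the group means in MG WT was *Krt19* (10334 ± 1096 SD, n = 3), *Krt18* (10188 ± 1086), *Krt8* (8856 ± 1047), *Krt14* (6085 ± 1149), *Krt5* (3555 ± 573), *Krt17* (3411 ± 595), *Krt7*, *Krt23*, *Krt15* and *Krt6a*. In T N it was *Krt18* (25635 ± 13432 SD, n = 4), *Krt8* (13262 ± 6899), *Krt23* (1103 ± 945), *Krt7*, *Krt19*, *Krt17*, *Krt14*, *Krt5*, *Krt15* and *Krt6a*. The place of *Krt7* depends on its annotated exon length of 7049 bases, against 1437 (*Krt18*) to 2418 (*Krt6a*) for the others. By mean normalized count, *Krt7* exceeded *Krt23* in T N (2820 and 1726). Shares describe the composition of the keratin reads and were not tested.

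**Figure D1:**
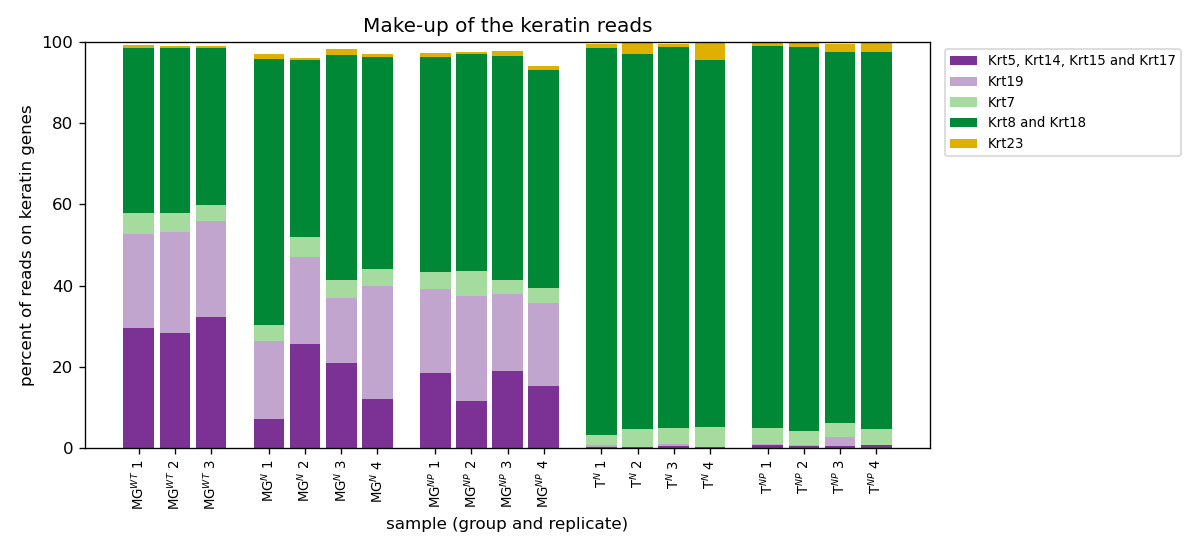
Percent of the reads on keratin genes (vertical axis, linear from 0) taken by the 4 basal keratins, *Krt19*, *Krt7*, *Krt8* with *Krt18*, and *Krt23* in each of 19 samples, 1 bar per sample, wild-type glands first and T NP tumors last. *Krt8* with *Krt18* fill 90.6% to 95.3% of the T N bars and 38.9% to 40.7% of the MG WT bars.

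*Krt5* (ENSMUSG00000061527, chromosome 15, 101707070 to 101712898 on the minus strand of GRCm38) is the type II chain of basal filaments. Its normalized count was 7304, 6884 and 9245 for MG WT, 512, 1222, 1691 and 671 for MG N and 1511, 1133, 1438 and 611 for MG NP. The tumors had 3.41, 5.27, 26.3 and 3.501 for T N and 10.1, 15.9, 19.5 and 4.99 for T NP. Every MG WT gland lay above every other sample and every tumor below every gland, while MG N overlapped MG NP and T N overlapped T NP. Its log2 fold change was −3.08 (standard error 0.38) in MG N and −2.81 (standard error 0.32) in MG NP against MG WT (limma, Benjamini-Hochberg adjusted p = 0.000275 and 0.000695). Against their glands it was −6.91 (standard error 0.64) in T N and −6.49 (standard error 0.45) in T NP (limma, Benjamini-Hochberg adjusted p = 0.000123 and 1.9e-05). In bulk tissue, fewer cells of a type and less RNA per cell cannot be told apart, here and for each keratin below.

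*Krt14* (ENSMUSG00000045545, chromosome 11, 100203162 to 100207548 on the minus strand) is the type I partner of *Krt5*. It had 9047, 10094 and 12949 normalized counts for MG WT, 410.1, 1104, 1521 and 590.1 for MG N and 988, 965, 1329 and 391 for MG NP, and 12.5, 6.32, 45.4 and 8.17 for T N and 21.3, 30.5, 41.6 and 53.7 for T NP. As for *Krt5*, the MG WT glands were highest, the tumors lay below all glands, and the T N and T NP ranges overlapped. The log2 fold change was −3.73 (standard error 0.42) in MG N and −3.65 (standard error 0.40) in MG NP against MG WT, and −5.80 (standard error 0.64) in T N and −4.55 (standard error 0.42) in T NP against their glands. Their Benjamini-Hochberg adjusted p from limma was between 6.64e-05 and 0.000591. Per kilobase of exon, the ratio of *Krt14* to *Krt5* was 1.71 ± 0.146 (SD, n = 3) for MG WT, 1.09 ± 0.0598 (SD, n = 4) for MG N and 0.959 ± 0.177 (SD, n = 4) for MG NP. For the T N tumors it was 2.79 ± 1.33 (SD, n = 4) and in T NP 5.29 ± 5.43 (SD, n = 4), on counts of at most 53.7 per gene and sample. T NP replicate 4, with 4 reads on *Krt5*, carries the T NP mean: the 4 ratios were 2.64, 2.40, 2.67 and 13.4.

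*Krt17* (ENSMUSG00000035557, chromosome 11, 100256217 to 100261029 on the minus strand), a type I chain of basal and of injured or proliferating epithelia, stood apart from *Krt5* and *Krt14* in the tumors. Its normalized count was 4872, 4651 and 6349 for MG WT, 153, 836, 868 and 206 for MG N and 359, 248, 807 and 119 for MG NP. It was 40.9, 53.7, 40.4 and 79.4 for T N and 232, 329, 244 and 321 for T NP. Every T NP tumor was above every T N tumor, and the T NP tumors lay within the range of the MG NP glands, whereas every T N tumor lay below every gland. Testing gave log2 fold changes of −3.75 (standard error 0.62) in MG N and −4.10 (standard error 0.57) in MG NP against MG WT, and −2.89 (standard error 0.60) in T N against MG N (limma, Benjamini-Hochberg adjusted p = 0.00119, 0.00151 and 0.00419). In T NP against MG NP the change was −0.13 (95% interval −1.28 to 1.02), which was not called (limma, Benjamini-Hochberg adjusted p = 0.844). T NP against T N gave 2.41 (standard error 0.28, 95% interval 1.77 to 3.05), with a Benjamini-Hochberg adjusted p from limma of 0.0434 and an exact two-sided permutation p of 0.0286 (n = 4 and 4), the smallest that design allows. That call is close to its threshold: the log2 fold change stayed between 2.29 and 2.61 with any 1 tumor left out, yet the limma Benjamini-Hochberg adjusted p rose to 0.166, 0.122 and 0.146 without T N replicates 2, 3 and 4. It was 0.151, 0.267, 0.166 and 0.230 without T NP replicates 1, 2, 3 and 4 (limma, Benjamini-Hochberg), 0.439 with the replicate number as a block and 0.167 with T NP replicates 1 and 2 averaged. The library names of T NP replicates 1 and 2 share a number, so n = 4 may count 1 mouse more than once. The difference between the genotypes in the tumor-gland change was 2.76 (standard error 0.83, 95% interval 0.99 to 4.54), not called by limma (Benjamini-Hochberg adjusted p = 0.480) and called by DESeq2 (adjusted p = 0.0380). Per kilobase, the ratio of *Krt17* to *Krt14* was 0.563 ± 0.0445 (SD, n = 3) for MG WT, 0.580 ± 0.216 (SD, n = 4) for MG N, 0.434 ± 0.176 (SD, n = 4) for MG NP, 6.34 ± 4.76 (SD, n = 4) for T N and 9.51 ± 3.22 (SD, n = 4) for T NP. The ratio was below 1 in all 11 glands and above 1 in 7 tumors, and in T N replicate 3 it was 1.008, close to equal.

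*Krt15* (ENSMUSG00000054146, chromosome 11, 100131758 to 100135928 on the minus strand), a type I keratin of basal cells in stratified epithelia, had the lowest level per kilobase of the basal genes in each gland group. Its normalized count was 422, 123 and 226 for MG WT, 7.64, 197, 405 and 36.05 for MG N and 94.4, 168, 258 and 24.5 for MG NP, and 4.54, 15.8, 3.03 and 1.17 for T N and 6.73, 12.2, 36.4 and 16.2 for T NP. The gland groups overlapped one another, and MG N replicates 1 and 4 and MG NP replicate 4 lay within the range of the tumors. *Krt15* was not called in MG N or MG NP against MG WT, with log2 fold changes of −1.68 (standard error 1.21) and −1.17 (standard error 0.80). In T N against MG N it was −3.74 (standard error 1.18) and in T NP against MG NP −2.67 (standard error 0.75), both called (limma, Benjamini-Hochberg adjusted p = 0.0268 and 0.0154) although the groups overlapped. The call in T N was lost without MG N replicate 2 (−3.25, adjusted p = 0.0731), MG N replicate 3 (−2.90, 0.0645), T N replicate 3 (−3.60, 0.0547) or T N replicate 4 (−3.30, 0.0691), all by limma with Benjamini-Hochberg adjustment.

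**Figure D2:**
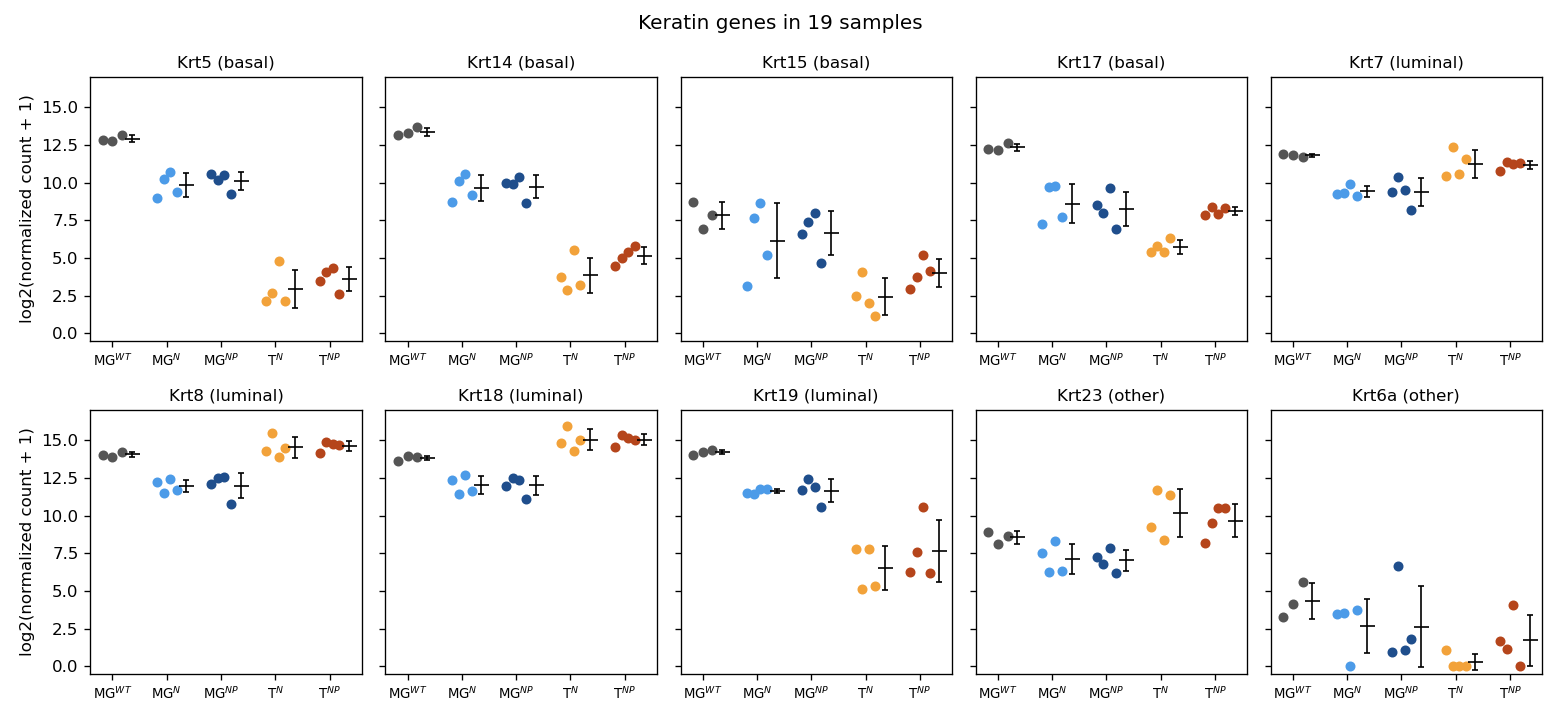
Level of each of the 10 keratins in 19 samples, as log2(normalized count + 1) on the vertical axis, with 1 point per sample in its group and the group mean with 1 SD beside it. *Krt5* counts reach at most 26.3 in the tumors and are at least 512 in the glands, and *Krt17* is at least 232 in every T NP tumor and at most 79.4 in T N.

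*Krt8* (ENSMUSG00000049382, chromosome 15, 101996698 to 102004482 on the minus strand) is the type II chain of simple epithelia and of luminal cells. Its normalized count was 16975, 15499 and 19548 for MG WT, 4809, 2897, 5431 and 3352 for MG N and 4404, 5772, 5977 and 1778 for MG NP. In the tumors it was 19993, 45607, 15091 and 23177 for T N and 17900.5, 30175, 27896 and 26824 for T NP. All tumors lay above all MG N and MG NP glands and overlapped MG WT, with T N replicate 2 the highest. The log2 fold change was −2.11 (standard error 0.23) in MG N and −2.09 (standard error 0.41) in MG NP against MG WT, and 2.57 (standard error 0.35) in T N and 2.64 (standard error 0.38) in T NP against their glands. The Benjamini-Hochberg adjusted p from limma lay between 0.000128 and 0.00585 for these.

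*Krt18* (ENSMUSG00000023043, chromosome 15, 102028180 to 102032027 on the plus strand), the type I partner of *Krt8*, had 12912, 15947 and 15062 normalized counts for MG WT, 5269, 2817, 6510.0 and 3244 for MG N and 4072, 5878, 5275 and 2243 for MG NP. The tumors had 29343, 64490.1, 19914 and 33604 for T N and 23775, 42618, 36854 and 33762 for T NP. Every tumor lay above every gland, MG WT lay above the other glands, and T N and T NP overlapped. Its log2 fold change was −1.79 (standard error 0.28) in MG N and −1.83 (standard error 0.32) in MG NP against MG WT, and 2.99 (standard error 0.39) in T N and 3.03 (standard error 0.32) in T NP against their glands. Against MG WT the 8 tumors together gave 1.20 (standard error 0.30), called by limma (Benjamini-Hochberg adjusted p = 0.00451), with an exact two-sided permutation p of 0.00606 (n = 8 and 3). *Krt18* exceeded *Krt8* per kilobase in each group, by a ratio of 1.16 ± 0.207 (SD, n = 3) for MG WT, 1.44 ± 0.151 (SD, n = 4) for MG N, 1.39 ± 0.231 (SD, n = 4) for MG NP, 1.93 ± 0.0900 (SD, n = 4) for T N and 1.81 ± 0.0860 (SD, n = 4) for T NP. This ratio was higher in every T N tumor than in every gland, and its T NP range overlapped those of T N and MG NP.

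*Krt7* (ENSMUSG00000023039, chromosome 15, 101411043 to 101430313 on the plus strand), a type II chain of luminal and ductal epithelia, had 3802, 3611 and 3383 normalized counts for MG WT, 615, 644, 970.1 and 558 for MG N and 671, 1347, 738 and 285 for MG NP. It had 1377, 5383, 1499 and 3020.4 for T N and 1778, 2649.6, 2393 and 2515 for T NP. All tumors were above all MG N and MG NP glands, and only T N replicate 2 was above MG WT. The log2 fold change was −2.40 (standard error 0.19) in MG N and −2.44 (standard error 0.46) in MG NP against MG WT, and 1.82 (standard error 0.42) in T N and 1.80 (standard error 0.41) in T NP against their glands (limma, Benjamini-Hochberg adjusted p = 2.63e-05, 0.00482, 0.00695 and 0.00563).

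*Krt19* (ENSMUSG00000020911, chromosome 11, 100140810 to 100148665 on the minus strand), a small type I chain of luminal cells, went the other way from the rest of the luminal set in the tumors. Its normalized count was 17055, 19345 and 21111 for MG WT, 2951, 2833, 3478 and 3515 for MG N and 3316, 5624, 3868 and 1528 for MG NP. It was 215, 33.7, 215 and 39.7 for T N and 74.0, 194, 1512 and 72.4 for T NP. All 8 tumors lay below all 11 glands, and T NP replicate 3 stood well above the other 7 tumors. Testing gave log2 fold changes of −2.59 (standard error 0.13) in MG N and −2.56 (standard error 0.40) in MG NP against MG WT (limma, Benjamini-Hochberg adjusted p = 3.1e-06 and 0.00234). They were −5.14 (standard error 0.62) in T N and −4.01 (standard error 0.92) in T NP against their glands (limma, Benjamini-Hochberg adjusted p = 0.000336 and 0.00591). Per kilobase, *Krt19* was near *Krt18* in MG WT, with a ratio of 1.02 ± 0.0733 (SD, n = 3), and the ratio was 0.617 ± 0.224 (SD, n = 4) for MG N and 0.617 ± 0.0931 (SD, n = 4) for MG NP. For the T N tumors it was 0.00384 ± 0.00384 (SD, n = 4) and in T NP 0.00984 ± 0.0146 (SD, n = 4), a mean that T NP replicate 3 carries (0.00241, 0.00353, 0.0318 and 0.00166 in replicates 1 to 4). The tumors thus kept high *Krt8* and *Krt18* counts without a matching count of *Krt19*.

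*Krt23* (ENSMUSG00000006777, chromosome 11, 99477974 to 99493137 on the minus strand), a type I keratin of glandular and other simple epithelia, had 492, 274 and 395 normalized counts for MG WT, 182, 77.0, 316 and 79.3 for MG N and 155, 109.9, 227 and 72.3 for MG NP. It had 618, 3348, 337 and 2601 for T N and 287, 736, 1449.5 and 1431 for T NP. T N replicates 2 and 4 were highest, T N lay above MG N and T NP above MG NP, and MG WT overlapped MG N and the tumors. The log2 fold change was 3.07 (standard error 0.79) in T N and 2.64 (standard error 0.56) in T NP against their glands (limma, Benjamini-Hochberg adjusted p = 0.0111 and 0.00397). Against MG WT it was −1.45 (standard error 0.50) in MG N and −1.53 (standard error 0.41) in MG NP, both called (limma, Benjamini-Hochberg adjusted p = 0.0352 and 0.0188), with exact two-sided permutation p-values of 0.0857 and 0.0571 (n = 4 and 3). The MG N call was lost with edgeR (0.0609) and, by limma with Benjamini-Hochberg adjustment, with all 5 groups in 1 fit (0.119) and without MG WT replicate 1 (0.117), MG WT replicate 3 (0.0943), MG N replicate 2 (0.0718) or MG N replicate 4 (0.0739). The MG NP call was lost, by limma with Benjamini-Hochberg adjustment, with all 5 groups in 1 fit (0.101) and without MG WT replicate 1 (0.0764) or replicate 3 (0.0646). The 8 tumors against MG WT gave 1.37 (standard error 0.70), not called by limma (Benjamini-Hochberg adjusted p = 0.106), but called by limma without T N replicate 3 (1.66, 0.0308) or T NP replicate 1 (1.62, 0.0498), by edgeR (0.0469) and by DESeq2 (0.0103).

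*Krt6a* (ENSMUSG00000058354, chromosome 15, 101689910 to 101694307 on the minus strand), a type II keratin of stressed or proliferating epithelia, was near the limit of detection. Its normalized count was 8.53, 16.6 and 47.5 for MG WT, 10.2, 10.3, 0 and 12.4 for MG N, 0.954, 98.5, 1.08 and 2.58 for MG NP, 1.14, 0, 0 and 0 for T N and 2.24, 1.22, 15.6 and 0 for T NP. MG NP replicate 2 held the highest count, and 3 of the 4 T N tumors had no read. It did not reach the minimum for a test in the 3 comparisons T N against MG N, T NP against MG NP and T NP against T N. It was not called against MG WT in MG N or MG NP, but without MG NP replicate 2 the latter gave −3.04 and was called (limma, Benjamini-Hochberg adjusted p = 0.0125). The 8 tumors against MG WT gave −3.33 (standard error 0.76), called by limma (Benjamini-Hochberg adjusted p = 0.00271) although the groups overlapped. Of its 75-base stretches, 51.1% also occur in other genes, *Krt6b* among them, so reads may have been counted on either, and *Krt6b* itself had at most 2.85 normalized counts in any sample.

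For the comparison of glands from tumor-bearing mice with wild-type glands, 8 of the 10 keratins were called lower in MG N (background: 17.9% of 19017 genes called lower) and 0 higher (background 19.1%), whereas scaling to the pan-epithelial genes left 2 lower and 1 higher, where 214 of all genes were lower and 16454 higher. In MG NP 8 of 10 were also lower (background 16.2% of 19065) and 0 higher (background 16.4%), and that scaling left 2 lower and 0 higher, where 142 of all genes were lower and 15735 higher. Of the 10, limma gave 8 an unadjusted p under 0.05 in each comparison, where 63.6% (MG N) and 54.7% (MG NP) of all genes had one, and edgeR and DESeq2 also called 0 keratins higher. The median log2 fold change was −3.40 for the basal and −2.26 for the luminal keratins in MG N, and MG NP gave −3.23 and −2.27, beside 0.02 and 0.02 for all genes. The 3 MG WT glands serve as controls in both, which therefore share them. The adipocyte markers moved with this difference: 9 of 9 were higher in MG N and in MG NP, with medians of 10.34 and 9.45, and their summed normalized count was 2349, 2906 and 1986 for MG WT, 409727, 386415, 314195 and 483189 for MG N and 173191, 167840.0, 248556 and 446321 for MG NP. *Fabp4* was the most abundant of them in the MG WT and MG N glands, *Cfd* or *Fabp4* in MG NP, and no adipocyte marker was at 0 in any gland. The 14 pan-epithelial genes were all lower in both comparisons (medians −2.43 and −2.30), led by *Cldn4* (−4.18 and −4.10) and *Elf3* (−3.40 and −3.35). Of 12 skeletal muscle markers 9 were higher in MG N and 12 in MG NP, and together they took 0.000672%, 0.000576% and 0.000535% of the reads for MG WT, 0.0449%, 0.0622%, 0.0335% and 0.00149% for MG N and 1.51%, 7.56%, 0.0466% and 4.12% for MG NP, with *Myh4* the most abundant in all MG NP glands and at most 1 of them without a read in any gland. Of 9 fibroblast markers 6 were higher in MG N and 2 in MG NP, with sums of 41158, 67404 and 60881 for MG WT, 133489, 471401, 267647 and 161523 for MG N and 64267, 72883, 146624 and 85971 for MG NP, *Col3a1* being the most abundant except in MG NP replicate 2, where it was *Dcn*, and no fibroblast marker at 0. Of 6 immune markers 2 were higher in MG N and 1 was in MG NP. What part the other tissues had in the keratin difference was not tested.

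T N against MG N and T NP against MG NP gave 5 of 9 tested keratins lower in T N (background 22.3% of 17950 genes) and 4 higher (background 12.8%), of which scaling to the pan-epithelial genes left 0 higher, where 130 of all genes were higher. In T NP 4 of 9 were lower (background 24% of 17880) and 4 higher (background 14.7%), again 0 higher with that scaling, where 176 of all genes were. The medians were −4.77 for the basal and 2.20 for the luminal keratins in T N and −3.61 and 2.22 in T NP, beside −0.05 and −0.07 for all genes. *Krt7*, *Krt8*, *Krt18* and *Krt23* were higher and *Krt19* lower in both, and *Krt17* was lower in T N without being called in T NP, a difference that limma did not call. The pan-epithelial genes rose too, 13 of 14 in T N and 14 of 14 in T NP (medians 2.52 and 2.77), for example *Epcam* at 3.62 in T N. All 9 adipocyte markers were lower in both (medians −8.55 and −7.55), with sums of 3997, 643, 8252 and 1971 for T N and 1386, 2552, 1913 and 1024 for T NP, and 2 of the 9 at 0 in T N replicate 2. *Fabp4*, *Lipe* or *Cfd* was the most abundant of them in each tumor. Of 12 skeletal muscle markers 11 were lower in T NP, against 0 called in T N, where the median was −1.43, and their sums were 3548, 361, 28096 and 337 for T N and 372, 1588, 5831 and 6444 for T NP. Fibroblast markers were lower for 7 of 9 tested in T N and 4 of 8 in T NP, and immune markers for 4 of 6 in each. The fibroblast sums were 43951, 30031, 270173 and 39177 for T N and 27625, 37652, 57551 and 37244 for T NP, with *Col3a1* the most abundant in every tumor and 1 marker at 0 in T N replicate 2. Their part in the keratin changes was not tested.

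Setting each sample's keratins against its pan-epithelial genes (the mean log2 value of the 14 genes) gave another view, a description over samples. *Krt8* lay 2.28 log2 units above that mean in MG WT, 2.65 in MG N, 2.61 in MG NP, 2.63 in T N and 2.64 in T NP. *Krt18* lay at 2.04, 2.73, 2.63, 3.12 and 3.05 in the same order. *Krt5* lay at 1.13 in MG WT, 0.54 in MG N and 0.74 in MG NP but −8.98 in T N and −8.36 in T NP, and *Krt19* at 2.43, 2.33, 2.29, −5.42 and −4.34. *Krt14* lay at 1.57 in MG WT and 0.34 in MG N, −8.07 in T N and −6.82 in T NP, and *Krt17* at 0.56, −0.70, −6.20 and −3.86 in those groups. Where the samples were scaled to these genes, *Krt8* gave log2 fold changes of 0.37 and 0.33 against MG WT in MG N and MG NP, of −0.029 in T N against MG N and in T NP against MG NP of 0.026. That scaling moves all genes alike: the median of all genes became 2.48 and 2.41 in MG N and MG NP against MG WT and −2.62 and −2.66 in T N and T NP against their glands, so the turn in direction of *Krt8* follows from it. With that scaling the calls of *Krt5*, *Krt7*, *Krt8*, *Krt18* and *Krt19* in both gland groups against MG WT and of *Krt7*, *Krt8*, *Krt18* and *Krt23* in both tumor groups against their glands were lost. *Krt23* in MG N against MG WT became 1.02 (limma, Benjamini-Hochberg adjusted p = 0.0317), below the median of all genes, of which 16454 of 19017 were called higher, and in MG NP 0.88, not called. *Krt14* and *Krt17* stayed lower in MG N against MG WT (−1.24 and −1.27), and *Krt17* in T NP against MG NP became −2.73 (limma, Benjamini-Hochberg adjusted p = 3.38e-05), near the median of all genes, of which 16131 of 17880 were called lower.

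The 8 tumors compared with MG WT, glands without the neu transgene, had 6 of 10 keratins lower (background 26.7% of 18735 genes) and 1 higher (background 18.9%). In limma the log2 fold change was −9.64 for *Krt5*, −8.87 for *Krt14*, −5.44 for *Krt17*, −4.63 for *Krt15* and −7.15 for *Krt19*, with standard errors from 0.23 to 0.89. For these 5 genes no tumor overlapped a wild-type gland, and the exact two-sided permutation p was 0.00606 (n = 8 and 3), the smallest this design allows. *Krt7* at −0.61 (standard error 0.35) and *Krt8* at 0.50 (standard error 0.29) were not called, and *Krt18* was the gene called higher. Pan-epithelial genes were called in both directions, 4 higher and 2 lower of 14, with a median of 0.32. Adipocyte markers were higher for 2 and lower for 1 of 9, and skeletal muscle markers higher for 6 of 12. Fibroblast markers were lower for 4 of 8 (median −1.28), and immune markers lower for 4 and higher for 1 of 6 (median −2.67). The part of these tissues was not tested.

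Glands and tumors were also compared between the NP and N genotypes, where MG N replicates 2 to 4 carried the unconverted p53 allele. In MG NP against MG N, limma called 0 of 10 keratins (background 0% of 18563 genes higher and 0% lower), 0 had an unadjusted p under 0.05, and edgeR and DESeq2 also called 0 keratins. Across all genes 1950 had an unadjusted p under 0.05, edgeR called 0 and DESeq2 called 404 higher and 115 lower. The log2 fold changes ran from −0.35 for *Krt17* to 0.51 for *Krt15*, all groups overlapped, and the 95% intervals ran from −0.78 to 0.83 for *Krt19*, the narrowest, to −3.25 to 3.13 for *Krt6a*, the widest. For 3 of the 10, *Krt8* (−0.89 to 0.94), *Krt18* (−0.88 to 0.80) and *Krt19*, the interval stayed within 1 log2 unit either way. In T NP against T N, limma called 1 of 9 keratins higher, *Krt17* (background 0.0361% of 16638 genes), and 0 lower (background 0.00601%), while 1 had an unadjusted p under 0.05, as had 7.27% of all genes. DESeq2 called 1 keratin higher, edgeR called 0 higher, and both called 0 lower. *Krt14* gave 1.32 (95% interval −0.04 to 2.68) and *Krt15* 1.58 (95% interval −0.02 to 3.18), *Krt8* 0.09 (−0.68 to 0.85) and *Krt18* −0.00 (−0.80 to 0.80), none called. The difference between the 2 tumor-gland changes was called by limma for 0 of 10 keratins (background 0% of 19367 genes), with 1 at an unadjusted p under 0.05, *Krt17*. Across all genes 1536 had an unadjusted p under 0.05 there, edgeR called 0, and DESeq2 called 50 higher and 277 lower. For the skeletal muscle markers in MG NP against MG N, limma called 0 of 12, while all 12 had an unadjusted p under 0.05. Their median there was 6.11, with the sum of MG NP replicate 3 inside the MG N range. In the same comparison of MG NP with MG N, adipocyte markers (median −0.83) and fibroblast markers (median −0.75) had 5 of 9 each at an unadjusted p under 0.05. Limma called 0 of these markers. Their part in the keratin values was not tested.

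**Figure D3:**
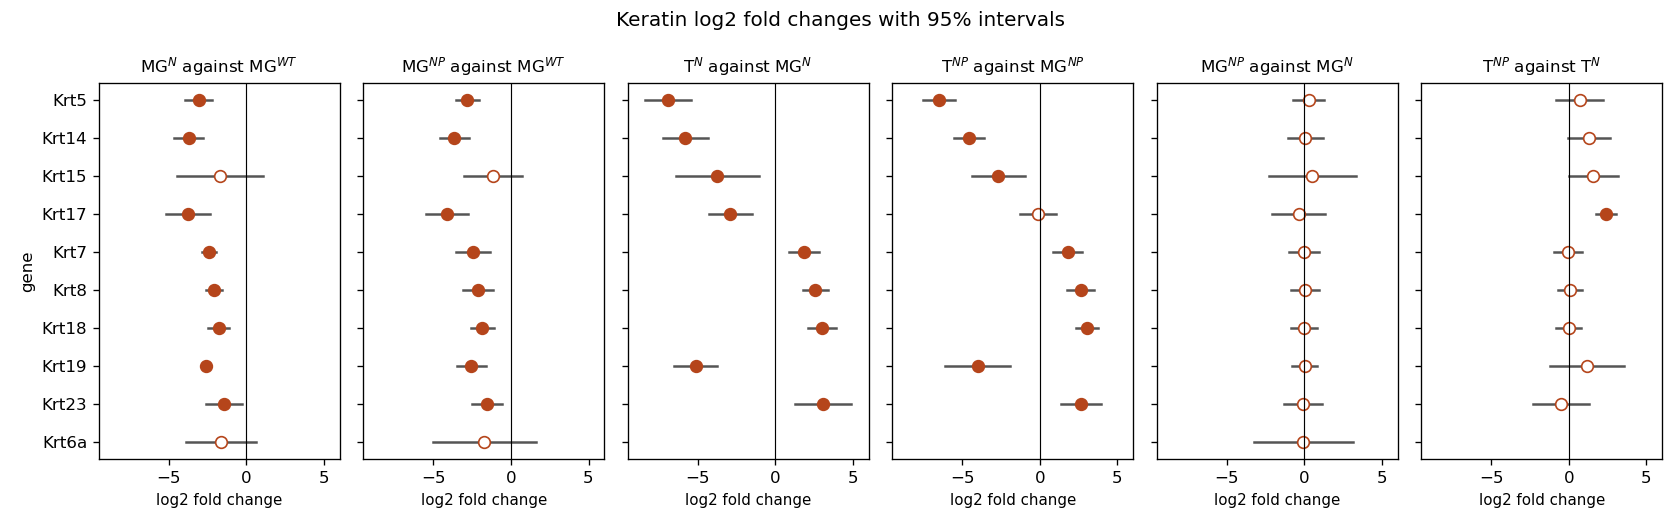
Log2 fold change (horizontal axis) of each tested keratin in 6 comparisons, 1 panel each, with its 95% interval from limma. Filled points are called (Benjamini-Hochberg adjusted p under 0.05 and at least 2-fold) and open points are not. *Krt17* at 2.41 is the filled point in T NP against T N, and all 10 points are open in MG NP against MG N. Scaling to the pan-epithelial genes gives *Krt8* in MG N against MG WT 0.37, where the median of all genes is 2.48.

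The distance between the layers was followed as the mean log2 value of the 4 basal minus that of the 4 luminal keratins. It was −1.68, −2.19 and −1.73 for MG WT, −4.33, −1.52, −1.76 and −3.19 for MG N, −2.40, −3.11, −1.95 and −2.80 for MG NP, −8.39, −8.40, −7.20 and −8.41 for T N and −6.73, −7.02, −7.20 and −6.61 for T NP. All tumors lay below all glands, T N and T NP overlapped through T N replicate 3, and MG N spread most widely among the glands. The mean was −1.87 ± 0.28 (SD, n = 3) for MG WT, −2.70 ± 1.32 (SD, n = 4) for MG N, −2.57 ± 0.50 (SD, n = 4) for MG NP, −8.10 ± 0.60 (SD, n = 4) for T N and −6.89 ± 0.27 (SD, n = 4) for T NP. Without *Krt19*, which fell with the basal genes in the tumors, it was −9.88 ± 1.02 (SD, n = 4) for T N and −8.38 ± 0.27 (SD, n = 4) for T NP, against −1.62 ± 0.27 (SD, n = 3) for MG WT. Type I chains summed over the members exceeded type II chains per kilobase by a ratio of 2.36 ± 0.248 (SD, n = 3) for MG WT, 2.20 ± 0.0965 (SD, n = 4) for MG N, 2.04 ± 0.191 (SD, n = 4) for MG NP, 1.95 ± 0.112 (SD, n = 4) for T N and 1.84 ± 0.0791 (SD, n = 4) for T NP. The type II sum depends on the exon length of 7049 bases used for *Krt7*.

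Other markers of the same layers were followed as lists, whose counts stand beside the share of all tested genes called: 17.9% lower in MG N and 16.2% in MG NP against MG WT. In tumors against their glands that share was 12.8% higher and 22.3% lower for T N, and 14.7% higher and 24% lower for T NP, and 26.7% were lower in the tumors against MG WT. Of 9 basal and myoepithelial markers that are not keratins, 7 were lower in MG N and 8 in MG NP against MG WT, 8 in T N and 8 in T NP against their glands, and 9 in the tumors against MG WT, with medians of −1.89, −1.70, −3.12, −2.36 and −4.81 on the log2 scale. *Cnn1* and *Myh11*, of the contractile apparatus, gave −4.55 and −4.33 in T N against MG N, and *Trp63*, a basal transcription factor, −2.50 in MG N against MG WT. Of 11 luminal markers that are not keratins, 9 were lower in MG N and in MG NP against MG WT. In T N 3 were higher and 4 lower, and in T NP 4 higher and 3 lower, against their glands. *Foxa1*, a luminal transcription factor, was lower there (−4.60 and −4.43) while *Ehf*, an epithelial one, was higher (2.40 and 2.89), so that the luminal markers did not move as one with *Krt8* and *Krt18*. Against MG WT the tumors had 7 of 11 lower (median −3.69). Of 11 desmosome genes, which anchor keratin filaments between cells, 9 were lower in MG N and 8 in MG NP, and in the tumors against their glands 6 were higher and 1 lower in T N and 7 higher and 1 lower in T NP. *Dsc2* was higher (3.11 and 3.54), and of the cadherins of stratified epithelia *Dsg3* was higher (4.17 and 2.75) and *Dsc3* lower (−7.26 and −4.56). Of 9 hemidesmosome genes, which anchor keratin filaments to the basement membrane, 7 were lower in MG N and in MG NP, 3 higher and 2 lower in T N, where 2 of 9 is no more than the share of all genes, and 3 higher and 3 lower in T NP. *Col17a1*, which basal cells make, was lower in each of these (−3.38 in MG NP against MG WT, −7.02 in T N and −6.34 in T NP). In MG NP against MG N and in T NP against T N limma called 0 genes of these 4 lists and of the other lists named above, where at most 12 and 2 of a list had an unadjusted p under 0.05.

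Of the 44 other keratin genes, few reached the minimum for a test: 12 in MG N and 10 in MG NP against MG WT, of which 3 were higher and 5 lower in MG N (all genes 19.1% and 17.9%) and 3 higher and 3 lower in MG NP (all genes 16.4% and 16.2%). The shares of all genes called in the other comparisons, given above, also stand beside the counts that follow. *Krt36*, a hair keratin, had 1.28 to 4.39 normalized counts in MG WT, 78.9 to 95.8 in MG N and 24.9 to 93.0 in MG NP, and at most 1.25 in the tumors. *Krt222* was also higher (2.84 and 4.14), and *Krt42* (−4.75 and −4.97) and *Krt16* (−4.53 and −4.99) were lower in both. In T N and in T NP against their glands 5 were tested and 3 were lower, with *Krt36* and *Krt222* among them, and against MG WT 6 of 9 were lower in the tumors. *Krt36*, with at most 1.25 normalized counts in the tumors, passed the minimum against their glands only through the glands. *Krt80* had the highest count of the 44 in 16 of the 19 samples, with 195 to 358 in MG WT and 23.9 to 59.7 in the tumors. The highest was *Krt36* in MG N replicate 4, *Krt10* in T N replicate 1 and *Krt79* (74.0) in T NP replicate 3. Skin was checked with 10 epidermis genes, of which 3 were tested in each comparison but MG NP against MG N, where 4 were, and limma called 0 (at most 1 had an unadjusted p under 0.05). Of the hair follicle genes, 2 of 4 tested were lower in MG N against MG WT (*Krt71* and *Tchh*), 0 of 3 in MG NP, 2 of 2 in T NP against MG NP and 2 of 2 in the tumors against MG WT, and none was tested in T N against MG N or T NP against T N. In T NP against MG NP these were *Padi3* (means 0.942 and 20.1) and *Tchh* (2.38 and 26.6), which passed the minimum only through the glands. *Tchh* in the tumors against MG WT (2.64 and 36.7) did so too. For these a fall was the only call possible. Of 6 salivary gland genes, 2 (*Dcpp1* and *Dcpp2*) were called higher in the tumors against MG WT, where both had no read in MG WT. They passed the minimum there only through the tumors, so a rise was the only call possible. The summed normalized count of the 6 genes ran from 1.14 to 154 in T N and from 16.2 to 375 in T NP. None of the 6 was tested in the comparisons with MG N or MG NP, and limma called 0 of 2 in T NP against T N.

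The genes whose pattern was most like the mean of the basal keratins, by Pearson r over 19 samples among 14823 genes, were *Fat2* (0.979), *Slc35f3* (0.967), *Pard6g* (0.963), *Mylk* (0.961) and *Ephb1* (0.961). Most like the luminal mean were *Cdh1* (0.965), *Gm7694* (0.953), *Ptprk* (0.953), *Grhl2* (0.947) and *Tnk1* (0.947). *Mylk* is also in the basal list and *Cdh1* and *Grhl2* in the pan-epithelial list used here. These values describe samples that fall into glands and tumors: within the 8 tumors r ran from 0.479 (*Ephb1*) to 0.837 (*Fat2*) for the basal pattern and from 0.370 (*Tnk1*) to 0.801 (*Ptprk*) for the luminal one. Within the 11 glands it ran from 0.906 (*Pard6g*) to 0.965 (*Fat2*) and from 0.970 (*Gm7694*) to 0.986 (*Cdh1*).

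The keratins lie in 2 places of the genome: the type II chains *Krt7*, *Krt6a*, *Krt5* and *Krt8* and the type I chain *Krt18* on chromosome 15, and the other type I chains on chromosome 11. *Krt8* and *Krt18* lie on opposite strands. Of the 75-base stretches of their transcripts, 23.5% for *Krt8* occur in other genes (*Krt8-ps* among them), 7.77% for *Krt5*, 5.71% for *Krt14* (*Krt16*) and 0.0563% for *Krt7*, and 0% for *Krt15*, *Krt17*, *Krt18*, *Krt19* and *Krt23*. Promoter sequences from RefSeq (build GRCm38.p6) were found for 6 of the 10 (*Krt5*, *Krt14*, *Krt7*, *Krt8*, *Krt18* and *Krt23*), while *Krt15*, *Krt17*, *Krt19* and *Krt6a* have none in the table. Stretches of 100 bases are printed 5′ to 3′ for *Krt5*, *Krt8* and *Krt18*. For the basal *Krt5*, which fell in the tumors, the stretch (chr15:101712906-101713005, minus strand) lies before the RefSeq start, 7 bases from the nearest annotated start. For *Krt8* (chr15:102004483-102004582, minus strand) and *Krt18* (chr15:102028080-102028179, plus strand) it lies before the first annotated exon. *Krt8* and *Krt18* were both called higher in the tumors than in MG N and MG NP, calls lost when scaled to the pan-epithelial genes.
*Krt5*: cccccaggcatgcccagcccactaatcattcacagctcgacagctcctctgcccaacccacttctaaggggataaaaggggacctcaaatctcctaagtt
*Krt8*: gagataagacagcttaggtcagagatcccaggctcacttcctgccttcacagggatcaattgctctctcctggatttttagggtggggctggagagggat
*Krt18*: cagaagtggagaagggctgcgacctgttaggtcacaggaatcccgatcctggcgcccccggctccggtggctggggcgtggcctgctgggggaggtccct
The 250 bases before each start were searched on both strands for a TATA box (TATAAA), for an AP-1 type motif of 7 bases with any base in its middle, and for an Sp1 type GC box (GGGCGG). The 3 printed stretches hold none of these, and *Krt7* alone of the 6 windows holds the GC box. The *Krt14* window lies inside the annotated gene, with its start 1518 bases from the nearest annotated one, and the *Krt7* window lies inside the annotated gene and holds exon bases. Neither is printed. Of all 32851 windows of that length, 12.4% hold the TATA box, 6.75% the AP-1 type motif and 32.7% the GC box. A missing match says only that these letters are not in the window searched.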

How the data were processed

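The signal values used are normalized counts that the authors deposited, made from 75-base read pairs (HiSeq3000) aligned with TopHat2 2.1.1 and Bowtie2 (version not given) to GRCm38 (mm10), per the notes of the submitters. The counting tool and its annotation are not given in the sources used here. Each library's values are multiples of 1 step, and dividing by it recovered whole reads for 100% of the values at a tolerance of 0.05. In T N replicate 3 the step is close to 1, so its values are nearly reads. Of 46078 identifiers, 45143 had a symbol.

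Tests used limma 3.58.1 in R 4.3.3 on each pair of groups alone, with edgeR 4.0.16 and DESeq2 1.42.0 on recovered reads as alternatives. A gene was tested if the number of samples reaching 10 normalized counts was no less than the size of the smaller group. The 10 keratins and the lists were chosen with earlier results of these data known. Named are all 10 keratins, *Trp53* and *Erbb2* as label checks, the paralogs *Krt6b*, *Krt16* and *Krt42*, the 5 genes most alike each pattern, and per list at most the 2 largest rises, the 2 largest falls among called genes and the most abundant gene. Lists covered pan-epithelial, luminal, basal, desmosome, hemidesmosome, epidermis, hair follicle, salivary gland, adipocyte, skeletal muscle, fibroblast and immune genes and the other keratins.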

Additional observations from a re-analysis of the deposited data

Results flagged for a closer look

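A value is given here when it stood apart from the other 3 of its group, by the gap to its nearest neighbour relative to the range. Chance alone gives about 1 in 20 groups where values are independent and normally distributed, and 11 of the 132 groups of 4 looked at held such a value. *Krt6a* counts near 0 do not meet those conditions, and its values in MG NP replicate 2 and T N replicate 1 enter both as count and as share. The 11 of 132 can therefore not be set against that rate. None of the causes was tested.

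For *Krt6a*, MG N replicate 3 had 0 against about 10 to 12 in the others, MG NP replicate 2 had 98.5 against at most 2.58, and T N replicate 1 had 1.14 where the others had no read. As a percent of the keratin reads, *Krt6a* took 0.452 in MG NP replicate 2 and 0.00220 in T N replicate 1.

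For *Krt19*, T NP replicate 3 took 2.14% of the keratin reads against at most 0.252% in the other T NP tumors. In MG NP replicate 4 the 10 keratins took 94.2% of the keratin reads against at least 97.5%.

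In T N replicate 3 the basal minus luminal level was −7.20, against −8.39, −8.40 and −8.41 in the others. Among the marker lists, the mean log2 value of the pan-epithelial list was 8.15 in MG NP replicate 4, that of the desmosome list 8.87 in MG N replicate 3 and that of the immune list 7.81 in T N replicate 3.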

How the results depend on the processing

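Of 1658 gene results under other settings, 1510 kept direction and call, 37 were weaker, 7 stronger and 104 reversed. Except where the construction shows it, the cause was not tested. Low counts limit *Krt6a*, which was not tested with a mean of at least 50. DESeq2 gave it no adjusted p in MG NP against MG N or in the interaction.

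Scaling to the pan-epithelial genes moved the median of all genes by 2.46 in MG N and 2.39 in MG NP against MG WT, by −2.57 in T N and −2.59 in T NP against their glands and by −0.15 in the tumors against MG WT. This follows from its construction. In MG N against MG WT it gave *Krt15* 0.76, *Krt7* 0.085, *Krt8* 0.37, *Krt18* 0.69, *Krt23* 1.02 and *Krt6a* 0.49, with 1 keratin higher and 2 lower, and left *Krt5* at −0.59 and *Krt19* at −0.10, not called. In MG NP against MG WT it gave *Krt15* 1.23, *Krt8* 0.33, *Krt18* 0.59, *Krt23* 0.88 and *Krt6a* 0.33, with 2 lower, and *Krt5* −0.39, *Krt7* −0.024 and *Krt19* −0.14, not called. In T N against MG N *Krt7* was −0.78, *Krt8* −0.029, *Krt18* 0.39 and *Krt23* 0.48, and in T NP against MG NP *Krt7* was −0.81, *Krt8* 0.026, *Krt18* 0.42 and *Krt23* 0.044, with 0 keratins higher in either. In MG NP against MG N *Krt8* was −0.043 and *Krt19* −0.039, and in T NP against T N 0 keratins were higher. Across all genes the higher calls went from 3636 to 16454 in MG N and from 3136 to 15735 in MG NP against MG WT, and the lower calls from 3401 to 214 and from 3081 to 142. For T N against MG N the higher calls went from 2289 to 130 and the lower from 4009 to 16338, and for T NP against MG NP from 2625 to 176 and from 4300 to 16131. The comparison of MG NP with MG N went from 0 to 142 higher calls and from 0 to 3 lower calls.

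Total scaling moved the median of all genes by −0.11 in T N against MG N, −0.15 in MG NP against MG N and 0.16 in the interaction. In MG NP against MG N it gave *Krt14* −0.086, *Krt8* −0.13 and *Krt19* −0.13, and 1 gene higher in place of 0. In T NP against T N it gave *Krt18* 0.0054 and in the interaction *Krt7* 0.15. TMM scaling gave *Krt8* −0.014 and *Krt19* −0.0096 in MG NP against MG N, *Krt18* 0.0085 in T NP against T N and *Krt7* 0.028 in the interaction.

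With DESeq2, MG NP against MG N gave *Krt15* −0.22 and *Krt7* 0.15, and with edgeR *Krt15* −0.22, *Krt7* 0.15 and *Krt6a* 1.65. In MG NP against MG WT *Krt6a* was 0.12 with DESeq2 and 0.093 with edgeR. In T NP against T N *Krt8* was −0.021 and −0.011, and in the interaction *Krt8* was −0.13 and −0.12 and *Krt18* −0.073 and −0.058. DESeq2 and edgeR each called 2 keratins higher in the tumors against MG WT in place of 1, where of all 18735 genes DESeq2 called 3817 and edgeR 3918 higher. In the interaction DESeq2 called 1 keratin, *Krt17*, in place of 0. Across all genes DESeq2 called 404 (higher) and 115 (lower) for the MG NP glands against MG N in place of 0 and 0, 51 and 34 in T NP against T N in place of 6 and 1, and 50 and 277 in the interaction in place of 0.

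The call of *Krt17* in T NP against T N, where 1 keratin was higher, went to 0 keratins with T NP replicates 1 and 2 averaged (adjusted p = 0.167), all 5 groups in 1 fit (0.0889), edgeR (0.0638), a mean of at least 50 (0.0628), a pseudocount of 0.5 (0.0626), the pan-epithelial scaling (0.0687) and the replicate block (0.439), all by limma with Benjamini-Hochberg adjustment except edgeR. It held for TMM and total scaling, DESeq2, a pseudocount of 5, no filter and without T N replicate 1, and with 1 library left out the count was 0 to 1. Its log2 fold change stayed between 2.29 and 2.61 with 1 left out. For the block, over 36 same-numbered pairs the correlation had a median of −0.04, and 2 of 19 samples were best with their own number. T NP replicates 1 and 2, whose library names share a number, differed by a median of 0.199 log2 units, the smallest of the 6 T NP pairs (the others 0.250 to 0.311). The labels do not say whether they come from 1 mouse, so the 4 T NP tumors may be from 3 mice. Averaging them gave *Krt18* 0.023 in T NP against T N and *Krt7* 0.011 in the interaction. Across all genes the 6 higher and 1 lower calls became 0 with a pseudocount of 0.5, a mean of at least 50, the pan-epithelial scaling, edgeR, the block, averaging and without any 1 library but T N replicate 1 (34 and 17). No filter gave 0 lower in place of 1, and all 5 groups in 1 fit gave 22 and 4, and in MG NP against MG N 12 and 4 in place of 0.

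With 1 library left out, MG NP against MG N ran from −0.010 to 0.56 for *Krt5*, −0.25 to 0.44 for *Krt14*, −0.50 to 1.35 for *Krt15*, −0.82 to 0.096 for *Krt17*, −0.38 to 0.36 for *Krt7*, −0.16 to 0.42 for *Krt8*, −0.23 to 0.25 for *Krt18*, −0.24 to 0.39 for *Krt19*, −0.36 to 0.32 for *Krt23* and −1.39 to 0.50 for *Krt6a*. A pseudocount of 5 gave *Krt6a* 0.12. T NP against T N ran from −0.33 to 0.33 for *Krt7*, −0.13 to 0.40 for *Krt8* and −0.25 to 0.31 for *Krt18*, T NP against MG NP from −0.58 to 0.34 for *Krt17*, and the interaction from −0.42 to 0.37 for *Krt7*, −0.33 to 0.38 for *Krt8*, −0.26 to 0.35 for *Krt18* and −1.02 to 0.080 for *Krt23*. The keratins higher in the tumors against MG WT were 1 to 2, with *Krt23* the second one. Of all 18735 genes there, 3545 were higher without T N replicate 3 and 3530 without T NP replicate 1, the fits that called *Krt23*. Across all genes, the comparison of MG NP with MG N had 202 genes higher and 14 lower in place of 0 once MG NP replicate 3 was left out, and in the interaction 9 and 117, while leaving out MG NP replicate 4 gave 2 higher and T N replicate 1 gave 14 and 6.

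Without the 2-fold threshold MG N against MG WT had 5697 genes higher and 5544 lower in place of 3636 and 3401, T N against MG N 4217 higher in place of 2289, T NP against MG NP 4689 in place of 2625 and the tumors against MG WT 5692 in place of 3548. With a mean of at least 50 the tumors against MG WT had 2917 lower in place of 4998.

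The basal minus luminal level without *Krt19*, an alternative added after the data had been seen, was −9.88 in T N and −8.38 in T NP. *Krt5*, *Krt14* and *Krt19* in tumors against their glands kept direction and call in every setting: *Krt5* from −9.28 to −6.23 in T N, *Krt14* from −7.11 to −4.33 in T NP and *Krt19* from −7.72 to −4.65 in T N and from −6.61 to −2.94 in T NP.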
